A study of Mus musculus with 6 samples.

Results

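Fibronectin and 9 regulators of the switch between epithelial and mesenchymal cell states (Fn1, Snai1, Snai2, Zeb1, Zeb2, Twist1, Twist2, Esrp1, Esrp2 and Grhl2) were followed in RNA-seq counts of a mouse podocyte line. The members were the rows of the deposited count table whose gene symbol equalled a listed name, and all 10 were found among its 21719 genes. The 6 samples were of MPC5, a conditionally immortalised mouse podocyte line, all kept in high glucose. Of these, 3 were labelled wild type for the histone methyltransferase gene Setdb2 (Setdb2WT) and 3 were labelled knockout (Setdb2KO). No group without high glucose was among them. How Setdb2 was edited, and whether the edited cells are 1 clone, is not given in the sources used here. Nothing in the labels shows that libraries with the same genotype are separate cultures, so the p-values speak only of the spread among these 6 samples, and that spread may be technical.

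When epithelial cells take on mesenchymal traits, zinc finger proteins of the Snail family (Snai1, Snai2) and the ZEB family (Zeb1, Zeb2) and the basic helix-loop-helix factors Twist1 and Twist2 repress genes of epithelial junctions. ESRP proteins (Esrp1, Esrp2) direct epithelial patterns of alternative splicing, and Grhl2, a grainyhead-like factor, activates junction genes such as Cdh1 and opposes Zeb1. Fibronectin, the product of Fn1, is a matrix glycoprotein that integrins assemble into fibrils. In podocytes, specialised epithelial cells of the glomerulus that also carry mesenchymal traits such as vimentin, a gain of Snail factors and fibronectin has been studied as a sign of injury under high glucose and TGF-beta.

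Libraries held 36461449 to 37129174 reads. Setdb2 reads did not check the labels: they numbered 12, 10 and 9 under the label Setdb2WT and 17, 15 and 25 under the label Setdb2KO (adjusted p = 0.088 in edgeR's quasi-likelihood F test, adjusted by the Benjamini-Hochberg method). Setdb2WT and Setdb2KO below therefore mean only the libraries so labelled, and a gene that rose or fell was higher or lower under the label Setdb2KO. Smad3, also looked at beside Setdb2, had 162 ± 3.1 CPM (counts per 1000000 reads, scaled by TMM, a trimmed mean of gene ratios) under the label Setdb2WT and 61.9 ± 2.9 under the label Setdb2KO (SD, n = 3 each). Exchanged labels would turn every direction given here. Of the podocyte markers, Cd2ap, Nes, Synpo and Podxl were read in every library, whereas Wt1 had 0 to 2 reads and Lmx1b 0 to 1 in any library, and Nphs1, Ptpro and Tcf21 were not analysed here. Summed over the marker lists, CPM was 841 to 844 in Setdb2WT and 890 to 999 in Setdb2KO for 9 podocyte genes, 3047 to 3090 and 1068 to 1151 for 5 parietal epithelium genes, and 1084 to 1099 and 424 to 447 for 5 tubular genes. The podocyte sum was higher through Cd2ap, an adaptor of the slit diaphragm, which rose from 415 ± 4.1 to 633 ± 67 CPM. Without it the sum was lower in Setdb2KO, at 308 to 330 CPM against 422 to 432.5. Podxl, the podocyte surface sialomucin, fell from 50.5 ± 1.6 to 4.96 ± 0.38 CPM, and Nes (325 ± 3.9 to 276 ± 10) and Synpo (43.6 ± 0.60 to 25.4 ± 1.8) fell too (SD, n = 3 each), so that 3 of 7 podocyte genes tested rose and 3 fell. Of the 5 parietal genes 4 fell and Pax8 rose. All 3 tubular genes tested fell, while 83.8% of all genes tested were called (42.3% lower). Without Cdh16, the most abundant tubular gene, the other 4 summed to 593 to 596 CPM in Setdb2WT and 140 to 151 CPM in Setdb2KO. The other marker lists were low, with 21.4 to 23.4 CPM and 6.96 to 7.67 CPM for 7 mesangial and fibroblast genes, 10.5 to 12.1 CPM and 13.6 to 15.4 CPM for 7 endothelial genes, and 13.7 to 15.2 CPM and 9.38 to 11.8 CPM for 3 immune genes. Without their most abundant genes, Flt1 and Csf1r, the endothelial and immune sums overlapped between the groups. Lum (fibroblasts), Aqp2 (collecting duct), Emcn and Cdh5 (endothelium) had 0 or 1 read in each library, and Ptprc (leukocytes) 4 or 5 reads in each Setdb2WT library and 0 in each Setdb2KO library. The part of these differences in the results below was not tested.

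The 10 genes did not move in 1 direction. Fn1, Snai1, Twist1 and Grhl2 fell, Snai2, Zeb1, Zeb2 and Esrp2 rose, Twist2 did not pass the test, and Esrp1 had too few reads to enter it. Thus 8 of the 9 members tested were called, against 83.8% of all 13509 genes tested (41.5% higher and 42.3% lower), so the share of members called is near the background and is no result about them. The 3 libraries of each group lay apart without overlap in the same 8 members, as they did in 84.6% of all genes tested. The 9 members had a median log2 fold change of -0.055, and all genes tested one of 0.0045. The members' median ranged from -0.10 to 0.10 over the alternatives run. Under total-count scaling, which moved the median over all genes to 0.159, 4 members were higher and 2 lower. At least 2-fold changes were those of Snai2 and Grhl2 alone, while 16.4% of all genes tested rose and 16.2% fell by at least 2-fold. Fewer cells with a transcript and less of it per cell cannot be told apart in these bulk samples.

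**Figure D1:**
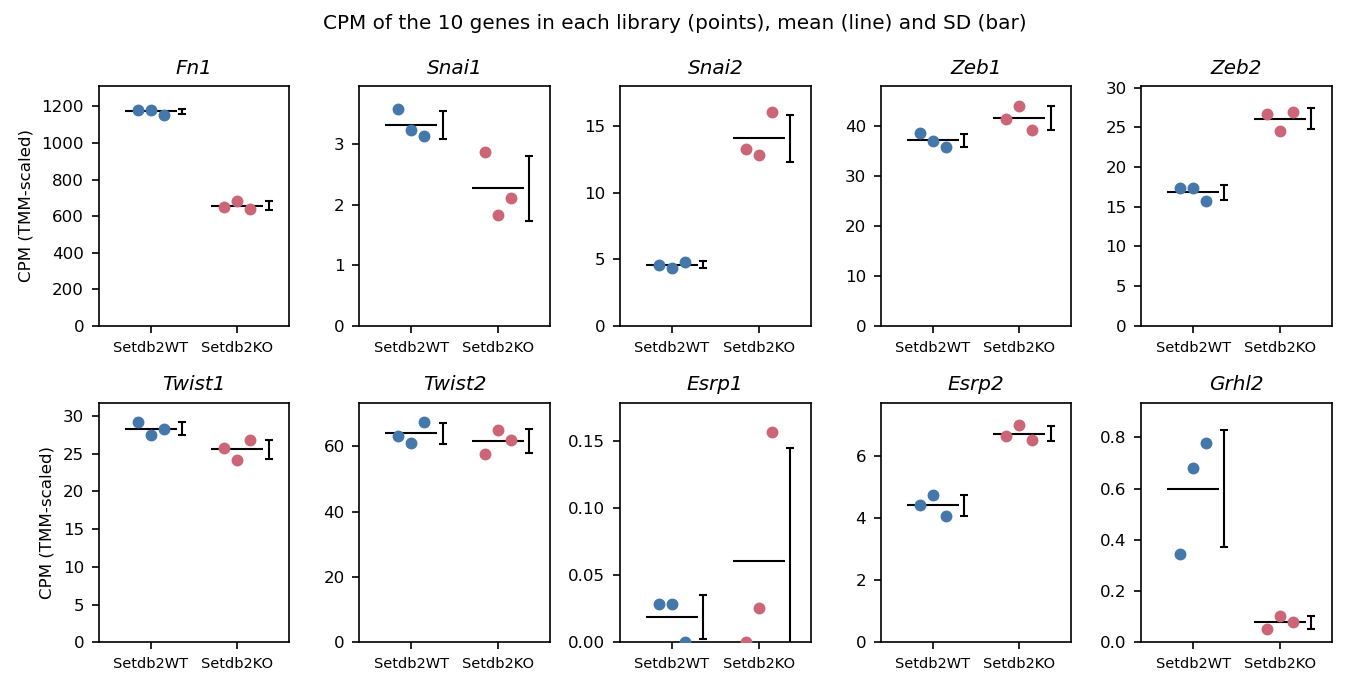
CPM (TMM-scaled, vertical axes from 0 and different for each gene) of the 10 genes in the 3 libraries labelled Setdb2WT and the 3 labelled Setdb2KO, with points for libraries, lines for means and bars for the SD. Snai2 sits between 12.9 and 16.1 CPM in Setdb2KO, above all Setdb2WT libraries, while Fn1, Snai1 and Grhl2 sit lower there and the points of Twist2 and Esrp1 overlap.

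Fn1 (Entrez 14268, on chromosome 1 in GRCm38), which encodes fibronectin, was by far the most abundant of the 10. It had 1179, 1183 and 1156 CPM in the Setdb2WT libraries and 652.5, 683.7 and 637.4 CPM in the Setdb2KO libraries. The lowest Setdb2WT library thus lay well above the highest Setdb2KO library. Fn1 fell 1.78-fold, and its mean was 1173 ± 14.7 CPM in Setdb2WT and 657.9 ± 23.6 CPM in Setdb2KO (SD, n = 3 each), with a log2 fold change of -0.83 (SE 0.031; adjusted p = 6.1e-12 in edgeR). In reads, this was a drop from 123124 to 76164 over 3 libraries. As a share of all reads, Fn1 took 0.109% to 0.112% in Setdb2WT and 0.0671% to 0.0720% in Setdb2KO. A larger change in either direction was fitted for 40.6% of the genes tested, so a change of this size is common in this comparison. The deposited counts are per gene and do not separate the fibronectin splice forms with or without the extra domains.

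The genes of the main fibronectin receptor did not pass the test. Itgb1, the integrin beta chain shared by most fibronectin receptors, had 941 ± 7.1 CPM in Setdb2WT and 917 ± 19 CPM in Setdb2KO (log2 fold change -0.038, adjusted p = 0.21), and Itga5, its main fibronectin-binding partner, had 132 ± 2.5 and 125 ± 3.7 CPM (log2 fold change -0.078, adjusted p = 0.052; edgeR, SD, n = 3 each). Over 27 tested genes of fibronectin receptors, adhesion and matrix assembly the median log2 fold change was -0.71. Of them 18 fell, 5 rose and the other 4 were not called (85.2% called, against 83.8% of all genes tested). Total-count scaling gave 17 lower, 8 higher and a median of -0.56. Itga3, a laminin-binding integrin chain, fell by 1.38 on the log2 scale, and the adhesion proteins Tln1 (talin) and Vcl (vinculin) fell by 0.89 and 0.53. Named for the smallest adjusted p, Tns1, a tensin of fibrillar adhesions, fell by 3.28 and the proteoglycan Sdc1 by 3.11.

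The 2 Snail genes moved in opposite directions. Snai1 (Entrez 20613, chromosome 2) had 125, 114 and 109 reads in the Setdb2WT libraries and 111, 71 and 81 reads in the Setdb2KO libraries. In CPM these were 3.58, 3.23 and 3.13 against 2.87, 1.83 and 2.11. The groups did not overlap in CPM, but Setdb2KO replicate 1 lay close to the lowest Setdb2WT library. Snai1 fell 1.46-fold, and its mean was 3.31 ± 0.23 CPM in Setdb2WT and 2.27 ± 0.54 CPM in Setdb2KO (SD, n = 3 each; log2 fold change -0.54, SE 0.18, adjusted p = 0.014, edgeR's quasi-likelihood test). This call was lost under total-count scaling (adjusted p = 0.064), without Setdb2WT replicate 1 (adjusted p = 0.0525) and without Setdb2KO replicate 2 (adjusted p = 0.0543).

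Snai2 (Entrez 20583, chromosome 16), also called Slug, had 161, 153 and 168 reads in Setdb2WT and 514, 498 and 617 in Setdb2KO. In CPM these were 4.61, 4.34 and 4.83 against 13.3, 12.9 and 16.1. Every Setdb2KO library was above every Setdb2WT library by a wide margin, and Setdb2KO replicate 3 was the highest. Snai2 rose 3.06-fold, and its mean was 4.59 ± 0.25 CPM in Setdb2WT and 14.1 ± 1.7 CPM in Setdb2KO (SD, n = 3 each; log2 fold change 1.62, SE 0.11, 95% interval 1.38 to 1.85, adjusted p = 4.4e-09, edgeR's quasi-likelihood test). A larger change in either direction was fitted for 16.5% of the genes tested. The ratio of summed reads was 3.07, with an exact Clopper-Pearson 95% interval of 2.77 to 3.40 for counting error alone. The family's remaining member, Snai3, looked up after its values were seen, was low, with 0.725 ± 0.23 CPM in Setdb2WT and 0.164 ± 0.12 CPM in Setdb2KO, and fell (adjusted p = 1.0e-03 in edgeR).

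Because both genes of a pair are read from the same library, their ratio does not depend on library scaling. Snai1 made up 43.7%, 42.7% and 39.4% of the summed Snai1 and Snai2 reads in the Setdb2WT libraries and 17.8%, 12.5% and 11.6% in the Setdb2KO libraries. The log2 ratio of Snai2 to Snai1 went from 0.47 ± 0.14 to 2.65 ± 0.38 (SD, n = 3 each), a difference of 2.18. All 3 Setdb2KO libraries lay above all 3 Setdb2WT libraries (exact two-sided permutation p = 0.10, the smallest that 3 against 3 allows; 0.15 adjusted over 3 pairs), and a p under 0.05 cannot be reached in this design. The summed level of both genes was 7.57 to 8.18 CPM in Setdb2WT and 14.7 to 18.2 CPM in Setdb2KO.

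Zeb1 (Entrez 21417, chromosome 18), a repressor of Cdh1, had 38.5, 36.9 and 35.9 CPM in Setdb2WT and 41.5, 44.1 and 39.2 CPM in Setdb2KO. The groups did not overlap, but the gap between the nearest libraries was smaller than the spread within Setdb2KO. Zeb1 rose 1.12-fold, and its mean was 37.1 ± 1.3 CPM in Setdb2WT and 41.6 ± 2.4 CPM in Setdb2KO (SD, n = 3 each; log2 fold change 0.16, SE 0.054, adjusted p = 0.012, edgeR's quasi-likelihood test). Without Setdb2WT replicate 2 or 3 it did not pass (adjusted p = 0.053 and 0.0745), and under total-count scaling the log2 fold change was 0.32.

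Zeb2 (Entrez 24136, chromosome 2), its paralog, had 17.4, 17.3 and 15.7 CPM in Setdb2WT and 26.7, 24.6 and 26.9 CPM in Setdb2KO. The 3 Setdb2KO libraries lay close together and clear of all Setdb2WT libraries. Zeb2 rose 1.55-fold, and its mean was 16.8 ± 0.95 CPM in Setdb2WT and 26.1 ± 1.3 CPM in Setdb2KO (SD, n = 3 each; log2 fold change 0.63, SE 0.067, adjusted p = 6.4e-07, edgeR's quasi-likelihood test). The antisense gene Zeb2os overlaps Zeb2, and without a stated strand setting their shared reads cannot be told apart. Zeb2os had 6, 15 and 9 reads against 2, 10 and 10, far fewer than the 1766 and 3018 summed reads of Zeb2. Zeb1 made up 68.1% to 69.5% of the pair's reads in Setdb2WT and 59.3% to 64.2% in Setdb2KO, without overlap (exact two-sided permutation p = 0.10; 0.15 adjusted over 3 pairs).

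The Twist genes, basic helix-loop-helix factors of mesoderm, had the smallest fitted changes of the 9. Twist1 (Entrez 22160, chromosome 12) had 29.1, 27.4 and 28.2 CPM in Setdb2WT and 25.7, 24.2 and 26.8 CPM in Setdb2KO. The highest Setdb2KO library came within 1 CPM of the lowest Setdb2WT library. Twist1 fell 1.11-fold, and its mean was 28.3 ± 0.88 CPM in Setdb2WT and 25.6 ± 1.3 CPM in Setdb2KO (SD, n = 3 each; log2 fold change -0.15, SE 0.058, adjusted p = 0.032, edgeR's quasi-likelihood test). Under total-count scaling its log2 fold change was 0.0092 (adjusted p = 0.89), and with DESeq2's size factors it was -0.12 (adjusted p = 0.062). The call was also lost without Setdb2WT replicate 1 or 3 or Setdb2KO replicate 1 or 2 (adjusted p = 0.0858, 0.0544, 0.0645 and 0.107 in edgeR).

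Twist2 (Entrez 13345, chromosome 1), the most abundant of the transcription factors here, had 63.2, 61.0 and 67.4 CPM in Setdb2WT and 57.7, 65.1 and 61.9 CPM in Setdb2KO. The groups overlapped. The log2 fold change was -0.055 (SE 0.052, 95% interval -0.17 to 0.057, adjusted p = 0.34, edgeR's quasi-likelihood test), and it was 0.10 under total-count scaling. The share of Twist1 in the pair's reads was 29.5% to 31.6% in Setdb2WT and 27.1% to 30.8% in Setdb2KO (exact two-sided permutation p = 0.40; 0.40 adjusted over 3 pairs).

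**Figure D2:**
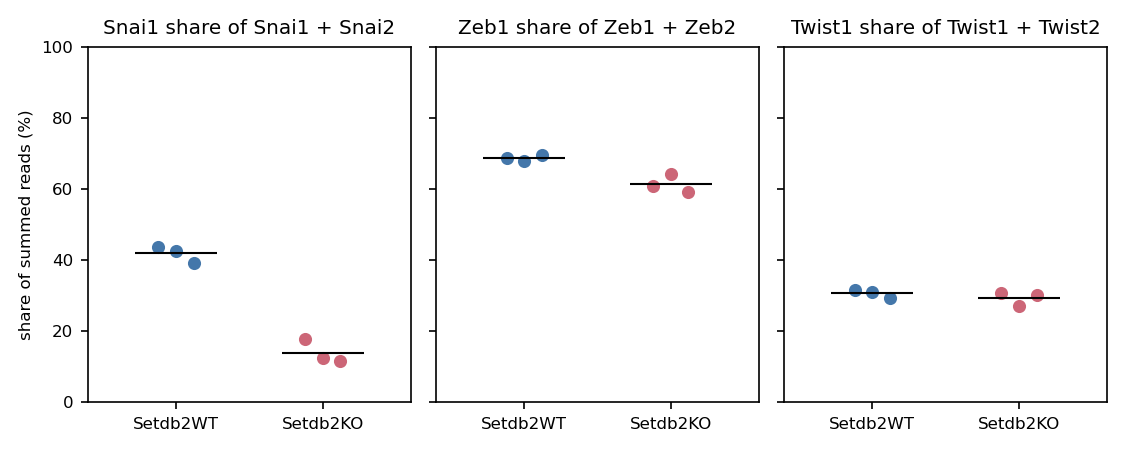
Share (%) of the first gene in the summed reads of each pair of paralogs, with points for the 3 libraries of each group and lines for means. The Snai1 share is 39.4% to 43.7% in Setdb2WT and 11.6% to 17.8% in Setdb2KO, the Zeb1 share moves less, and the Twist1 shares overlap.

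On the epithelial side, Esrp2 (Entrez 77411, chromosome 8), an epithelial splicing regulator, had 155, 167 and 141 reads in Setdb2WT and 257, 271 and 250 in Setdb2KO. In CPM these were 4.43, 4.74 and 4.05 against 6.64, 7.0 and 6.52. All Setdb2KO libraries were higher than all Setdb2WT libraries. Esrp2 rose 1.52-fold, and its mean was 4.41 ± 0.34 CPM in Setdb2WT and 6.72 ± 0.25 CPM in Setdb2KO (SD, n = 3 each; log2 fold change 0.61, SE 0.11, adjusted p = 1.7e-04, edgeR's quasi-likelihood test). Esrp2 overlaps Nfatc3 in the GENCODE annotation. Nfatc3 had 140 ± 3.2 CPM in Setdb2WT and 132 ± 5.6 CPM in Setdb2KO (SD, n = 3 each). Its groups overlapped (log2 fold change -0.088, adjusted p = 0.043 in edgeR). The part of Nfatc3 in the reads of Esrp2 was not tested.

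Its paralog Esrp1 (Entrez 207920, chromosome 4) was barely read, with 1, 1 and 0 reads in Setdb2WT and 0, 1 and 6 in Setdb2KO. Of its 7 Setdb2KO reads, 6 came from replicate 3. The ratio of summed reads was 3.17, with an exact 95% interval of 0.604 to 31.3 for counting error only, so no difference was detectable at this depth. Esrp1 did not pass the filter on low counts, and without a filter its adjusted p in edgeR was 0.374.

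Grhl2 (Entrez 252973, chromosome 15) had 12, 24 and 27 reads in Setdb2WT and 2, 4 and 3 in Setdb2KO. In CPM these were 0.343, 0.681 and 0.776 against 0.0517, 0.103 and 0.0782. The groups did not overlap, although Setdb2WT replicate 1 had less than the other Setdb2WT libraries. Grhl2 fell, with a mean of 0.600 ± 0.23 CPM in Setdb2WT and 0.0777 ± 0.026 CPM in Setdb2KO (SD, n = 3 each; log2 fold change -2.89, SE 0.52, adjusted p = 1.3e-04, edgeR's quasi-likelihood test). The ratio of summed reads, 63 against 9, was 7.72 with an exact 95% interval of 3.82 to 17.65 (counting error only). It passed the filter through its Setdb2WT libraries and had no value under the stricter CPM filter. Of its relatives, looked up after their values were seen, Grhl1 had 0.390 ± 0.29 and 2.41 ± 0.50 CPM and rose (log2 fold change 2.61, adjusted p = 1.3e-05 in edgeR), and Grhl3 had 1 read in all.

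**Figure D3:**
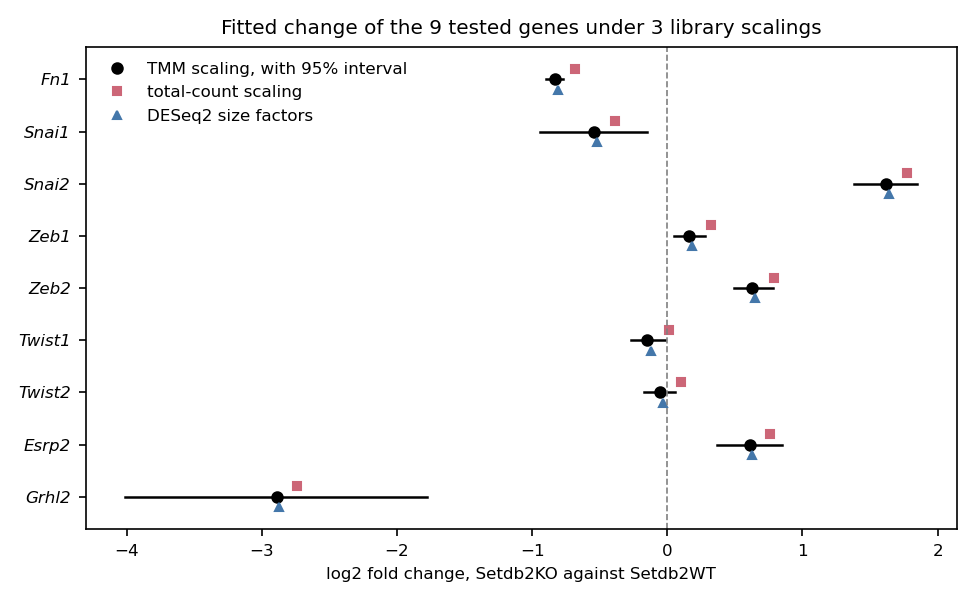
Log2 fold change of the 9 tested genes, Setdb2KO against Setdb2WT, with black points and 95% intervals for TMM scaling, squares for total-count scaling and triangles for DESeq2 size factors. Snai2 at 1.62 and Grhl2 at -2.89 lie farthest from 0, and Twist1 and Twist2 change sign under total-count scaling.

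Compared per length, on CPM divided by the length of the longest coding transcript in GENCODE M21, the order of levels in Setdb2WT was Fn1 (141 ± 1.8 CPM per kb), Twist2 (25.3 ± 1.3), Twist1 (17.4 ± 0.54), Zeb1 (6.40 ± 0.23), Snai2 (2.27 ± 0.12), Snai1 (2.05 ± 0.14), Zeb2 (1.84 ± 0.10), Esrp2 (1.25 ± 0.097), Grhl2 (0.121 ± 0.046) and Esrp1 (0.00491 ± 0.0043; SD, n = 3). Snai1 lay within 2 SD of both its neighbours in that order, Snai2 and Zeb2, while Zeb1 above these 3 genes and Esrp2 below them lay farther off. In Setdb2KO, Fn1 (79.1 ± 2.8 CPM per kb), Twist2 (24.4 ± 1.5) and Twist1 (15.7 ± 0.79) kept the top places. Zeb1 (7.17 ± 0.42) and Snai2 (6.97 ± 0.87) followed and did not differ beyond their spread. After them came Zeb2 (2.86 ± 0.14), Esrp2 (1.90 ± 0.071) and Snai1 (1.40 ± 0.33), with Grhl2 and Esrp1 each at 0.0157. Snai1 was thus within 2 SD of Snai2 in Setdb2WT and the lowest of the 6 Snail, ZEB and Twist genes in Setdb2KO. These levels rest on 1 transcript length per gene, and which transcripts the cells use was not tested.

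Promoter sequence was at hand for 4 of the 10 members (Snai1, Zeb2, Twist1 and Twist2) in the RefSeq table of GRCm38.p6, and is shown for the 2 of them with the firmer opposite changes. Snail and ZEB proteins bind the E-box CAGGTG, which was searched on both strands and stands in capitals here. Given are the 250 bases before the annotated start, 5′ to 3′ on the gene's strand, for Snai1 (chr2:167537945-167538194, plus strand) and for the most upstream of 4 Zeb2 starts (chr2:45117443-45117692, minus strand).
Snai1: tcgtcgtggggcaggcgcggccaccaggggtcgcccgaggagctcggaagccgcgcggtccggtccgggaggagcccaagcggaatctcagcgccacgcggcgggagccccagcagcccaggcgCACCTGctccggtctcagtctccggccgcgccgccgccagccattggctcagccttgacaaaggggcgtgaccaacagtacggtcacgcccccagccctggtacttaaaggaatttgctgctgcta
Zeb2: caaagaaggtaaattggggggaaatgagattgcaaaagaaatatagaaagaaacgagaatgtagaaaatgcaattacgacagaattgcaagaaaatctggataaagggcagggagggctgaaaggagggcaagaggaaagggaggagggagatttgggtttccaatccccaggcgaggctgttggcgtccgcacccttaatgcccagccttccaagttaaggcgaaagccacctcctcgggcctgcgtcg
The Snai1 window holds 1 such E-box, read on the minus strand, whose first base lies 126 bases before the start. The windows of Twist1, Twist2 and the 4 Zeb2 starts hold 0, and 17.2% of 32851 windows of the same length in the table hold at least 1. The Smad motif CAGAC, also searched on both strands, was found in 0 of the Snai1, Zeb2 and Twist2 windows and 1 time in that of Twist1, against 42.2% of all windows with at least 1. A match is a description of these letters, not of binding.

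By Euclidean distance between log2 CPM values (offset 0.1) centred over the 6 libraries, the protein-coding genes nearest to Fn1 were Ppp2r1b (distance 0.0374), Lamc1 (0.0377), which encodes a laminin chain of basement membranes, and Lrrfip1 (0.0409). Lamc1 went from 363 ± 2.2 to 207.5 ± 6.5 CPM. Nearest to Snai2 were E030030I06Rik (0.145), Zfp955a (0.158) and Rhoq (0.162), which rose by 1.62, 1.55 and 1.67 on the log2 scale. Nearest to Zeb2 were Spopl, Asxl2 and Ttbk2 (0.0573 to 0.0746). The genes nearest to Snai1 (Nucb2, Dennd6a and Sdhaf4) were farther away, at 0.288 to 0.295. Those of Zeb1 (4930579G24Rik, Ube2v1 and Depdc5), Twist1 (Hnrnpr, Rbbp9 and Cenpf), Twist2 (Cr1l, Cdkn2d and Appl2) and Esrp2 (Cdc14b, Tpgs1 and Myd88) lay at 0.0351 to 0.0842. With 2 groups of 3, such likeness mainly reads the size of the difference between the groups.

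Genes that the switch factors act on are given next, from lists of their known roles, with the same edgeR test. Cdh1, the epithelial cadherin that Snail and ZEB proteins repress, had 0, 1 and 2 reads in Setdb2WT and 5, 3 and 2 in Setdb2KO, and Epcam 5, 14 and 6 against 13, 7 and 1. Neither passed the filter on low counts, and no difference was detectable at this depth. Of 37 epithelial junction and surface genes in the table, 22 were tested. Of these, 13 were lower, 7 higher and 2 not called (90.9% called, against 83.8% of all genes tested). The median log2 fold change of the list was -0.27. The size of this median was not stable, and it moved both ways. It was -0.37 under the CPM filter, which left 19 genes tested. It was -0.12 under total-count scaling, -0.12 without Setdb2WT replicate 2 and -0.13 without Setdb2KO replicate 3. It was -0.14 without Setdb2WT replicate 3 or without a filter, -0.16 without Setdb2WT replicate 1 and -0.17 without Setdb2KO replicate 1. Leaving out a library changed which genes were tested (23 to 26), and without Setdb2WT replicate 3 the counts were 11 lower and 10 higher. Tjp1, a scaffold of tight junctions, fell by 0.16 on the log2 scale, Cdh3 by 2.69 and the polarity gene Llgl2 by 1.94. F11r, a junctional adhesion molecule, and the polarity scaffold Pals1 rose by 1.43 and 1.47.

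Mesenchymal genes were mostly lower: 19 of 21 tested fell, 1 rose and 1 was not called, and the median log2 fold change was -1.43. Of all genes tested, 42.3% fell and 41.5% rose. Cdh2, the neural cadherin whose rise often marks the mesenchymal state, had 368 ± 3.7 and 305 ± 2.5 CPM and fell by 0.27 on the log2 scale (adjusted p = 4.4e-07 in edgeR). Vim, Tpm1 and Axl fell by 1.93, 0.89 and 0.86, the matrix protein gene Sparc by 2.24, and Cald1, an actin-binding caldesmon, rose by 0.84. Thus Snai2 and Zeb2 were higher in the same libraries in which Fn1, Cdh2 and Vim were lower. Lower sums of parietal and tubular markers, which share no gene with this list, stood beside its shift, and their part was not tested. The lower mesangial and fibroblast sum is no separate measure, because 4 of its 7 genes are also in the mesenchymal list, among them Pdgfrb (11.4 to 4.12 CPM) and Col1a1 (7.24 to 1.68 CPM), which make up most of it. Its other 3 genes summed to 3.22 to 4.595 CPM in Setdb2WT and 1.06 to 2.03 CPM in Setdb2KO. Most of this was Gata3 (3.04 to 1.18 CPM), which is also in the list of epithelial-side transcription factors.

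**Figure D4:**
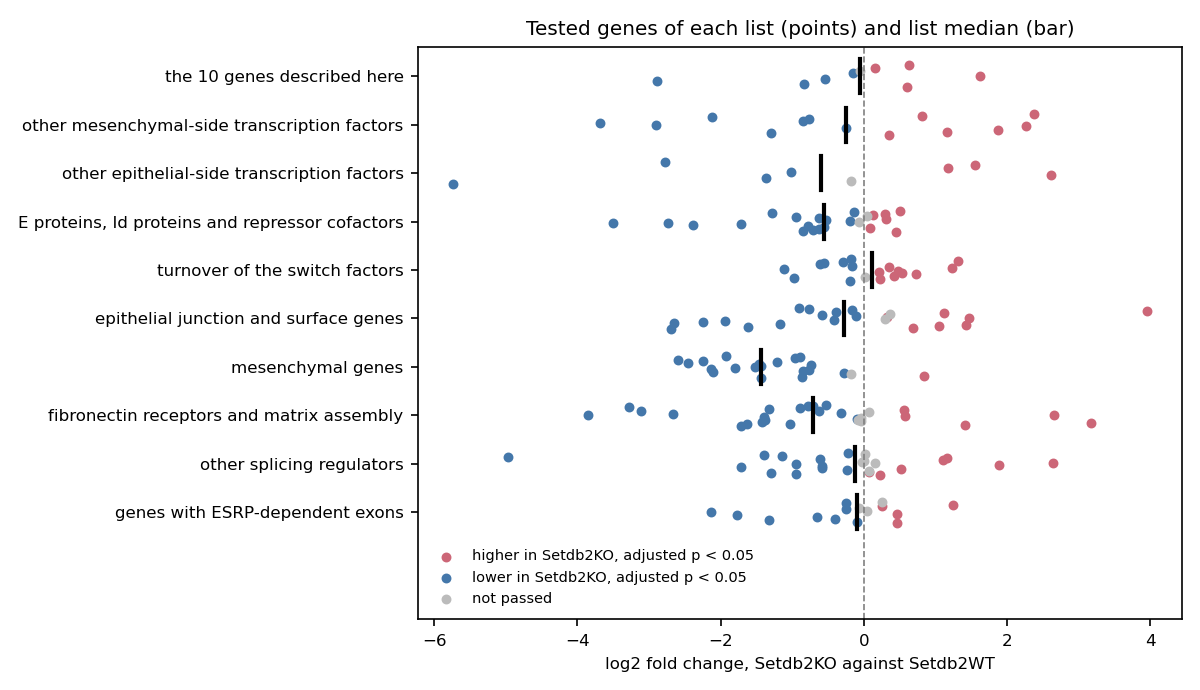
Log2 fold change of the tested genes of each list, Setdb2KO against Setdb2WT, with 1 point per gene coloured by its call in edgeR's test and a bar for the list median. The mesenchymal genes lie mostly to the left, with a median of -1.43, while the 10 genes described here lie on both sides of 0.

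Other transcription factors of the switch went both ways, as all genes tested did (41.5% higher and 42.3% lower). Such a split is thus no result about them. Of 13 tested on the mesenchymal side 7 fell and 6 rose, with Foxc1, Lef1, Runx2 and Hmga2 lower by 1.30, 2.90, 0.85 and 0.25 on the log2 scale and Fosl1 higher by 0.35. On the epithelial side 4 of 8 tested fell, 3 rose and 1 was not called. Tfcp2l1, a factor of kidney epithelium, fell by 2.77, and the Krüppel-like factors Klf4 and Klf5 rose by 1.17 and 1.56.

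Partners and turnover genes of the switch proteins were tested as well. Among 23 E proteins, Id proteins and repressor cofactors, 15 fell and 6 rose, at a median log2 fold change of -0.55. Thus 91.3% were called, against 83.8% of all genes tested (42.3% lower and 41.5% higher). Ctbp1, a corepressor of ZEB proteins, fell by 0.85, and Id2 and Id3, which bind E proteins and so keep them from partners such as Twist1, by 1.71 and 3.50. Smarca4, a chromatin remodelling ATPase, fell by 0.94. Ajuba, a LIM protein that works with Snail, rose by 0.45, and Suz12, a Polycomb subunit, by 0.13. Among 18 genes of turnover and transport, 9 rose and 8 fell (94.4% called, against the same 83.8%), and total-count scaling gave 10 and 5. Lats2, a kinase that stabilises Snail, rose by 1.23, Csnk1e, a casein kinase, rose by 0.23, and Kpnb1, an importin, fell by 1.12. The deubiquitinase genes Usp47 and Usp10 fell by 0.18 and 0.29.

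Other splicing regulators act beside Esrp1 and Esrp2. Among 24 tested, 12 fell and 7 rose at a median log2 fold change of -0.12. The share called, 79.2%, was near the 83.8% of all genes tested. Total-count scaling gave 11 lower, 10 higher and a median of 0.032, the CPM filter a median of -0.19, and the fit without Setdb2KO replicate 2 one of -0.081. Rbm47, an RNA-binding protein of epithelial splicing, had the smallest adjusted p of the list. It had 32.3, 29.95 and 30.7 CPM in the Setdb2WT libraries and 0.853, 1.24 and 0.860 CPM in the Setdb2KO libraries. Every Setdb2KO library was far below every Setdb2WT library. Rbm47 fell 31.4-fold, and its mean was 31.0 ± 1.2 CPM in Setdb2WT and 0.984 ± 0.22 CPM in Setdb2KO (SD, n = 3 each; log2 fold change -4.97, SE 0.11, adjusted p = 3.8e-14 in edgeR). Hnrnpk fell by 0.23, and Hnrnph1, with a log2 fold change of 0.068, did not pass. Hnrnpa1, which has many processed copies and is uncertain for that reason, fell by 1.29, and Ptbp1, a repressor of exons, had 965 and 946 CPM without passing the test. Among 15 genes with ESRP-dependent exons, 8 fell and 4 rose, at a median of -0.10 (0.053 with total-count scaling and -0.15 with the CPM filter). Here 80% were called, also near the share of all genes tested. Ctnnd1 and Enah, whose epithelial exons depend on ESRP proteins, fell by 0.40 and 0.66 as whole genes, Scrib fell by 0.25, Exoc7 by 1.77, Cd44 by 1.33 and Numb rose by 1.25. Gene counts hold no exon usage, so splicing was not analysed here.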

How the data were processed

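RNA of 6 MPC5 samples was sequenced, and the authors deposited unnormalized counts of reads for each gene and library. Per the submitters' processing notes, fastp, HISAT and HTSeq were used with GRCm39 (versions, annotation and use of strand: not given in the sources used here). Columns were matched to samples by genotype and number. The counts were fitted over all genes with edgeR 4.0.16 in R 4.3.3 (quasi-likelihood F test, TMM, a model of genotype alone, filterByExpr with its minimum count of 10, Benjamini-Hochberg adjustment at 0.05). CPM is scaled by TMM, fold changes are those of the fit, and SE is the log2 fold change over the root of F. Intervals are 95%. Depth was about equal in all libraries, so genes with few reads carry wide counting error. Scripts were tested on simulated counts of 13287 genes, with 50 changed at each of 1.2, 1.5, 2 and 4-fold. At 1.2-fold 30 of 50 were recovered and at 2-fold 50 of 50, with 18 false calls. Because 83.8% of genes were called in the real data, this does not test the scaling under so many changes. No pair of libraries with the same label agreed within sampling noise. The chi-square per degree of freedom was 2.55 to 2.71 for Setdb2WT pairs and 4.38 to 15.7 for Setdb2KO pairs. The Setdb2KO libraries were thus less even, with 8.84 and 15.7 for the pairs that hold replicate 2.

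The members and lists were chosen with earlier results of these data known. Of 259 genes in all lists, 243 were found. Named beside the members were Setdb2, Smad3, Cdh1, Epcam, Cdh2, Vim, Itga5 and Itgb1, the 4 of each pathway list with the highest mean CPM and the 2 with the smallest adjusted p at a mean CPM of at least 1, and the 3 genes nearest to each member with a mean CPM of at least 1, among those whose mean CPM reached 5. Podxl, Nes, Synpo, Cd2ap, Pax8, Cdh16, Flt1, Csf1r, Pdgfrb, Col1a1 and Gata3, and sums without some of them, were chosen after their values were seen. Some genes that the rule takes are left out of the text. Chromosomes and lengths are from GENCODE M21 (GRCm38), and promoters from RefSeq. Alternatives were DESeq2's size factors and Wald test (DESeq2 1.42.0), upper-quartile and total-count scaling, limma-voom (limma 3.58.1), no filter, a CPM filter, the replicate number as a block and each library left out.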

Additional observations from a re-analysis of the deposited data

How the results depend on the processing

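Fn1, Snai2, Zeb2, Esrp2 and Grhl2 kept direction and call in every alternative run (Grhl2 could not be fitted under the CPM filter), with log2 fold changes of -0.86 to -0.68, 1.51 to 1.77, 0.57 to 0.79, 0.54 to 0.76 and -3.19 to -2.68. Twist1 did not pass with DESeq2's size factors (-0.12), upper-quartile scaling (-0.13), the DESeq2 Wald test (-0.12) or the CPM filter (-0.12), and turned to 0.0092 under total-count scaling, as Twist2 did to 0.10. Snai1 did not pass under total-count scaling (-0.39). With 1 library left out, Snai1 ranged from -0.75 to -0.41, Zeb1 from 0.12 to 0.20 and Twist1 from -0.18 to -0.11. Snai1 lost its call without Setdb2WT replicate 1 or Setdb2KO replicate 2, and Zeb1 without Setdb2WT replicate 2 or 3. Twist1 lost it without Setdb2WT replicate 1 or 3 or Setdb2KO replicate 1 or 2. Beyond the smaller number of libraries in these last fits, the cause was not tested. Over all alternatives 6 to 8 members and 10380 to 12183 genes were called, and the count of called genes stayed within 1.5 times its value in each of the 9 lists. Same-numbered libraries showed no shared deviation (correlations of -0.011, -0.066 and 0.016), and not every library correlated best with its own number. Whether same-numbered libraries were prepared together is not given by the labels, and these correlations cannot decide it. The fit with the replicate number as a block called 11190 genes in place of 11318 and the same number of members, 8. Depth limits Esrp1, Cdh1 and Epcam, with at most 14 reads in any library, and to a lesser degree Grhl2.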
